A study of Arabidopsis thaliana with 6 samples.

Results

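The genes described here are those whose response to 4 °C differed between seedlings of the mutant lcbk1-2 and seedlings of the wild type Columbia-0, in the same direction at 3 h and at 24 h. For each gene, the change of log2 signal since 0 h in Columbia-0 was subtracted from the same change in lcbk1-2, and this value is called the difference of response below. A gene was taken when its difference of response was at least 2-fold, that is 1 on the log2 scale, at both cold times and had the same sign. The rule selected 77 of the 15653 features compared, where a feature is 1 probe set per gene or 1 probe set with no gene annotated. Of the 77 features, 42 had a higher response in lcbk1-2 and 35 a lower one. Signals under 66 were set to 66, called the floor here, before log2 values were taken. The selection rests on the measured values themselves, so the sizes below describe the chosen genes and test nothing.

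RNA came from whole Arabidopsis thaliana seedlings aged 2 weeks, grown on 1/2 MS with 2% sucrose in days of 16 h light and 8 h dark, and was measured on Affymetrix ATH1 arrays. The mutant groups were lcbk1-2, labelled a knock-out, kept at 22 °C (0 h) or moved to 4 °C for 3 h or for 24 h, and the wild-type groups were Columbia-0 at the same 3 times. There were 6 arrays, 1 per genotype and time, so no group had a replicate, no spread between replicates could be measured and no test was made. Neither genotype had 22 °C samples at 3 h or 24 h, so cold cannot be told apart from time of day or age. The mutant is 1 line. No compared feature was annotated to LCBK1, so its transcript could not be checked and the genotype rests on the label.

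The product of LCBK1 is a kinase of long-chain bases. It adds a phosphate to these sphingoid bases, from which plant sphingolipids are built. Phosphorylated long-chain bases act as signals in plants and are removed by a lyase or by phosphatases. In Arabidopsis, cold switches on COR (cold-regulated) genes, many of them through CBF transcription factors, and cell walls and membranes are remodelled as growth slows.

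The difference of response at 3 h and that at 24 h share both 0 h arrays. A signal that happened to differ between the 2 genotypes at 0 h therefore enters both times with the same sign, so agreement between the times is no independent repeat. For this reason the genotype difference, lcbk1-2 minus Columbia-0, is given at each time as well. In 52 of the 77 features this difference was larger in size at 0 h than at either cold time, in 18 it was larger at both cold times than at 0 h, and 7 were mixed. In 61 features the sign of the genotype difference at 0 h was opposite to that at both cold times. The rule itself favours a large difference at 0 h and a turned sign in the cold. These counts were not set beside the same counts over all compared features.

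Among the 42 features with a higher response in lcbk1-2, the median genotype difference was -0.92 at 0 h, 0.40 at 3 h and 0.50 at 24 h, in log2 units. Among the 35 with a lower response, it was 0.88 at 0 h, -0.42 at 3 h and -0.43 at 24 h. On these arrays the chosen features thus mostly stood apart at 0 h and lay closer together, with the sign turned, in the cold. The rule subtracts the 0 h difference at both cold times and so favours this pattern by itself. It is therefore no result about unchilled or chilled seedlings. At least 2-fold apart were 32 of the 77 at 0 h, 4 at 3 h and 4 at 24 h, while over all compared features the counts were 106, 113 and 127.

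**Figure D1:**
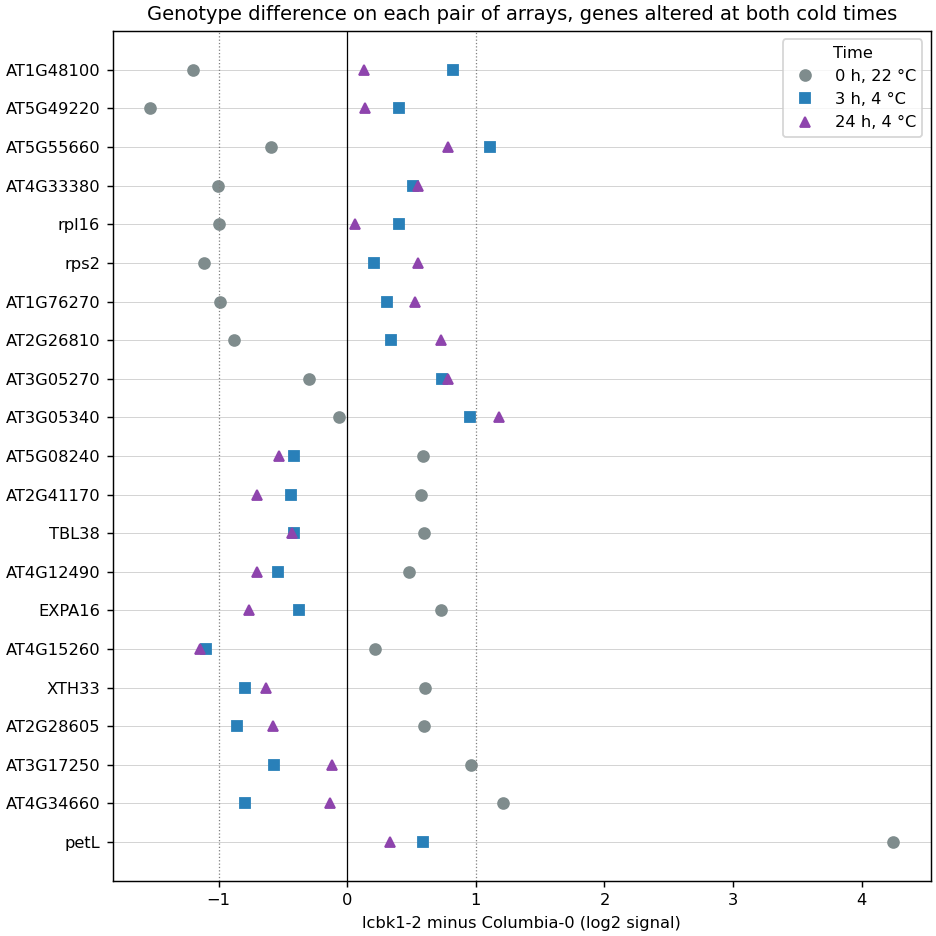
Genotype difference in log2 signal, lcbk1-2 minus Columbia-0, on the x axis for the 21 brighter annotated genes on the y axis; each symbol is 1 pair of arrays at 0 h (circle), 3 h (square) or 24 h (triangle), and the dotted lines mark 2-fold. For petL the circle lies at 4.25, and for AT4G15260 the circle lies at 0.22 with the square and the triangle at -1.10 and -1.15.

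Alteration at least 2-fold was uncommon. At 3 h, 204 features (1.3% of all compared) had a higher response in lcbk1-2 and 122 (0.779%) a lower one. At 24 h, 202 (1.29%) had a higher response and 227 (1.45%) a lower one. The same direction at both times was met by 42 (0.268%) and 35 (0.224%), and 0 features were altered at least 2-fold in opposite directions. Because both times share the 0 h arrays, the same direction is favoured over opposite ones. The split at 3 h depended on scaling, with 62.6% of the altered features higher here, but 47.0% after median scaling and 47.1% after quantile normalization. For the features altered at both times the higher share was 54.5%, against 47.4% after median scaling and 44.4% after quantile normalization.

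Over all compared features the difference of response had an SD of 0.39 at 3 h and 0.42 at 24 h, and medians of 0.01 and -0.00. Genes with 2 probe sets show how far 2 readings of 1 gene can differ on the same arrays. Both read the same RNA, so their gap leaves out any spread between plants or arrays. In the 66 such genes, the 2 probe sets differed by a median of 0.32 at 3 h and 0.27 at 24 h, and by over 1 in 6 genes at 3 h and in 5 at 24 h. Gaps of the size of the 2-fold threshold thus occurred between probe sets of the same gene. Alteration was most frequent among dim features: of those whose brightest array lay between 132 and 264, 5.21% were altered at 3 h and 6.83% at 24 h, while of those at 2112 or more 0.350% and 0.918% were altered. Of the 77 features, 45 lay in that band of 132 to 264 and 46 had no array reaching 264. The 9 hybridization control probe sets on the Columbia-0 array at 0 h were brighter, at a median of 2.23 times their median on the other arrays, and on the other 5 arrays 0.858 to 1.12 times; the array's part in the results was not tested, and it enters every difference of response except the change between 3 h and 24 h.

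**Figure D2:**
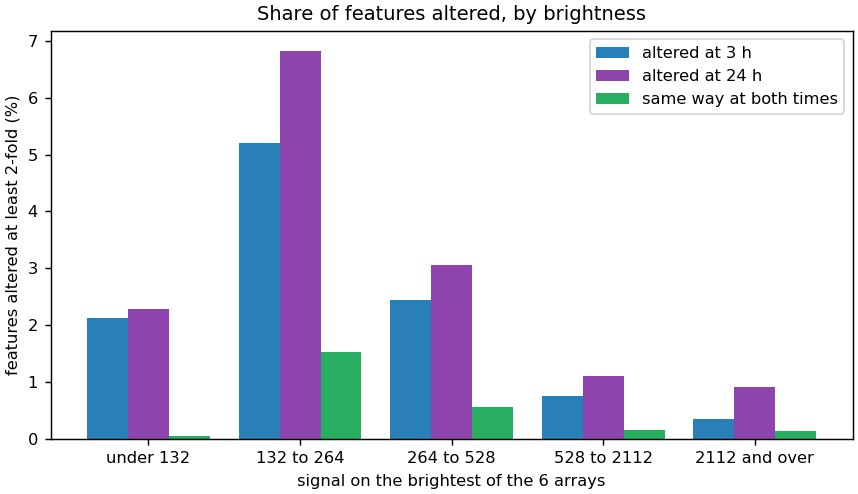
Percentage of compared features altered at least 2-fold at 3 h, at 24 h and in the same direction at both times (y axis), by the signal of the brightest of the 6 arrays (x axis). The share altered at both times is 1.52% for a brightest signal of 132 to 264 and 0.131% at 2112 and over; below 132 the floor leaves little room for a 2-fold difference.

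Of the 77 features, 45 had 1 annotated gene, 4 had several and 28 had none. Named below are the 21 annotated genes whose brightest array reached 264, 10 with a higher response in lcbk1-2 and 11 with a lower one. The other 24 annotated genes were dimmer. In 14 of these the difference of response was 1.03 to 1.67 at 3 h and 1.05 to 2.15 at 24 h, and in 10 it was -1.65 to -1.04 at 3 h and -1.70 to -1.06 at 24 h. In 24 of the 77 features at least 1 array lay at the floor, so that a part of their values are bounds. In others of these the difference without the floor could be smaller than given, so they may not reach 2-fold. With the floor raised to the median of all values, 158, the genes petL, AT4G33380, AT4G34660, rps2, AT2G28605, rpl16, AT4G12490 and TBL38 still met the rule and the other 13 named genes missed 2-fold at 1 or both times.

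The largest value belonged to petL, a chloroplast gene for a small subunit of the cytochrome b6f complex, which passes electrons between the photosystems. In lcbk1-2 its signal was 1259 at 0 h, 1364 at 3 h and 1141 at 24 h, against 66.3, 908 and 909 in Columbia-0. Of the 6 arrays, the Columbia-0 array at 0 h alone was low, next to the floor, and the other 5 lay between 908 and 1364. The difference of response was -3.66 at 3 h and -3.92 at 24 h, with a genotype difference of 4.25 at 0 h, 0.59 at 3 h and 0.33 at 24 h. With the floor at 158 the values were -2.40 and -2.66.

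The other chloroplast genes among the 77 code for ribosomal proteins. For rps2, of the small subunit, the signal in lcbk1-2 was 1284, 2050 and 2436 at 0 h, 3 h and 24 h, against 2774, 1780 and 1666 in Columbia-0. Its signal was higher in the cold than at 0 h in lcbk1-2 and lower in the cold in Columbia-0, with a difference of response of 1.32 at 3 h and 1.66 at 24 h. For rpl16, of the large subunit, lcbk1-2 had 1221, 3316 and 2385, against 2435, 2512 and 2293 in Columbia-0. The Columbia-0 arrays were nearly level, lcbk1-2 was low at 0 h, and the difference of response was 1.40 at 3 h and 1.05 at 24 h.

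Among the 68 compared chloroplast genes, 3 (4.41%) were altered at both times, compared with 0.492% of all features. Their directions differed, petL lower and rps2 and rpl16 higher. Over all 68 at 3 h, 4 had at least a 2-fold higher and 4 a lower response in lcbk1-2, where 1.3% and 0.779% of all features did. At 24 h 4 had a higher and 2 a lower one, where 1.29% and 1.45% of all features did. The medians were 0.19 and 0.17, against 0.01 and -0.00 over all features. The 4 lower at 3 h were petL, atpF (-1.21), rpl20 (-1.07) and ndhE (-1.02). Each had its lowest signal on the Columbia-0 array at 0 h, and a low signal there makes for a lower response by construction. Of the 4 higher at 3 h, rpl16, rps16 and rps2 had their lowest signal on the lcbk1-2 array at 0 h. The other, rps14, had it on the Columbia-0 array at 0 h. The part of these arrays was not tested. For the 15 genes of chloroplast ribosomal proteins, a group formed after their values were seen, the medians were 0.59 and 0.50, and for the 20 genes of the photosystems 0.14 and 0.15. Many chloroplast genes are transcribed together, so they are not separate observations.

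AT1G48100, a polygalacturonase family gene whose products cut pectin, had a signal of 70.5 at 0 h, 867 at 3 h and 5611 at 24 h in lcbk1-2, against 162, 491 and 5123 in Columbia-0. Both genotypes thus showed an increase on each later array, and the mutant was the lower at 0 h and the higher in the cold. This gave 2.02 at 3 h and 1.33 at 24 h, where the increase since 0 h was 6.31 in lcbk1-2 and 4.98 in Columbia-0. With the floor at 158 the values were 0.85 and 0.17, because the 0 h array of lcbk1-2 lies below it.

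XTH33 belongs to the xyloglucan endotransglucosylase/hydrolases, enzymes that cut and rejoin wall xyloglucan. Its signal was 352, 130 and 70.8 in lcbk1-2 at 0 h, 3 h and 24 h, against 231, 225 and 109 in Columbia-0. The mutant was the higher at 0 h and the lower at both cold times, and at 3 h Columbia-0 was within 0.04 of its own 0 h value while lcbk1-2 was 1.44 below its own. It gave a difference of response of -1.40 at 3 h and -1.23 at 24 h.

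EXPA16 encodes an expansin, a protein that loosens cell walls. In lcbk1-2 it read 262, 69.3 and 217, against 159, 90.1 and 369 in Columbia-0. At 24 h Columbia-0 stood above its own 0 h value and lcbk1-2 below it, and the difference of response was -1.10 at 3 h and -1.49 at 24 h. TBL38, of the trichome birefringence-like family, whose members are known for acetylating wall polysaccharides, read 445, 329 and 319 in lcbk1-2, against 294, 439 and 431 in Columbia-0. Its difference of response was -1.02 and -1.03, near the threshold, with the cold arrays lower than the 0 h array in lcbk1-2 and higher in Columbia-0.

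The families of these genes were grouped after their values were seen. Of 15 expansins measured, 1 had a 2-fold lower response at 3 h and 3 at 24 h, none a higher one, where 0.779% and 1.45% of all features were lower; the medians were -0.26 and -0.27. Of 7 xyloglucan endotransglucosylases, XTH33 alone was 2-fold lower at both times, as were 0.224% of all features, and the family's median was -0.34 at 3 h and 0.19 at 24 h, with 5 of the 7 above 0 at 24 h. Of 16 trichome birefringence-like genes TBL38 alone was 2-fold lower at both times, as were 0.224% of all features, with family medians of -0.09 and -0.11. EXPB1, a beta-expansin, was altered at 24 h alone: lcbk1-2 read 189, 379 and 57.7, against 119, 303 and 117 in Columbia-0, giving -1.50 as a bound at 24 h and -0.35 at 3 h.

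**Figure D3:**
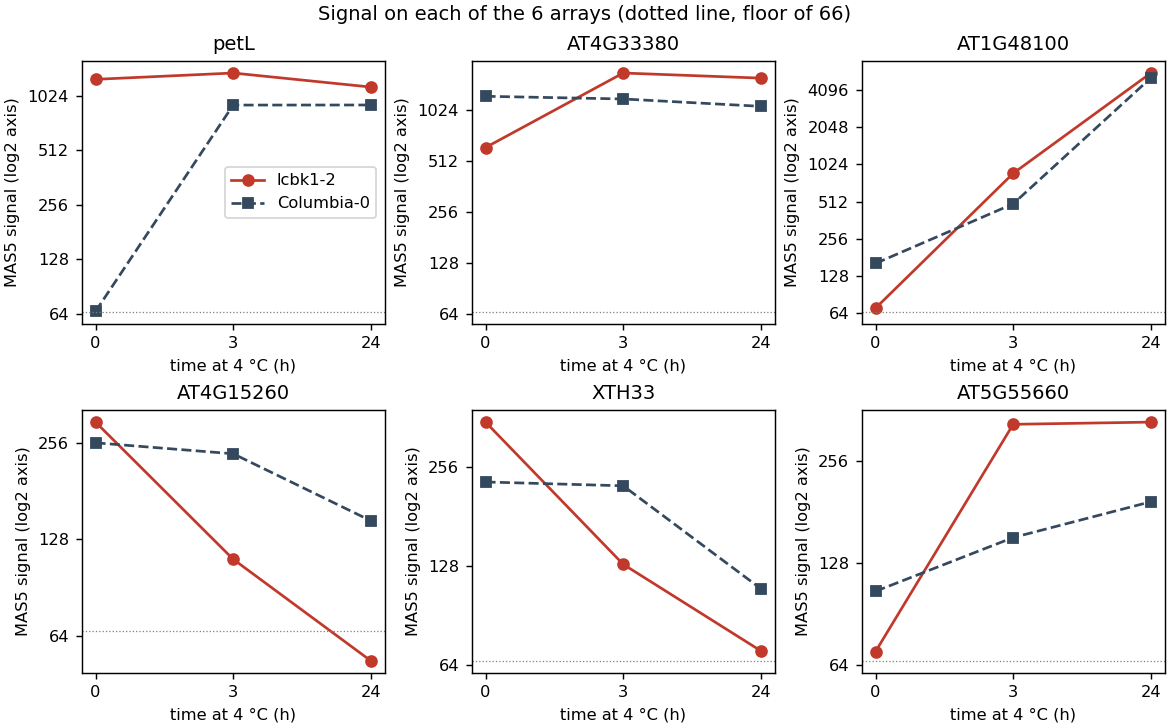
MAS5 signal (log2 y axis) on the arrays at 0 h, 3 h and 24 h (x axis) of lcbk1-2 (red circles) and Columbia-0 (dark squares), for petL, AT4G33380, AT1G48100, AT4G15260, XTH33 and AT5G55660. Each point is 1 array; the lines cross between 0 h and 3 h in each panel except that of petL, where lcbk1-2 is above Columbia-0 throughout.

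AT4G15260 belongs to the UDP-glycosyltransferase family, which attaches sugars to small molecules. It was 1 of the 18 features whose genotype difference was larger at both cold times than at 0 h. In lcbk1-2 it read 298 at 0 h, 111 at 3 h and 53.4 at 24 h, the last below the floor, against 257, 237 and 146 in Columbia-0. The genotypes were close at 0 h, with a genotype difference of 0.22, and lcbk1-2 was the lower in the cold, with a genotype difference of -1.10 at 3 h and of -1.15, a bound, at 24 h. These signals gave -1.31 at 3 h and -1.36, a bound, at 24 h. Of the 13 features that differed at least 2-fold between genotypes in the same direction at both cold times, it was the sole one that also met the rule, and 1 of 2, with AT1G30700, whose genotype difference at 0 h was under 0.5. For AT1G30700 the difference of response was -0.65 at 3 h and -1.04 at 24 h.

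UGT71C3, a dimmer family gene, was altered the other way. It read 70.6, 93.7 and 229 in lcbk1-2, against 164, 88.2 and 177 in Columbia-0, and its difference of response was 1.30 and 1.58. Of the 34 genes with a UGT symbol, 1 had a 2-fold higher response at 3 h and none a lower one, where 1.3% and 0.779% of all features did. At 24 h 1 had a higher and 3 a lower one, where 1.29% and 1.45% of all features did. The 3 were UGT73B1 (-1.33), UGT71B1 (-1.20) and UGT73C1 (-1.20), and for UGT73C1 the 0 h arrays of both genotypes lay at the floor. The family's median was -0.13 at 3 h and -0.20 at 24 h.

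The genes AT5G55660, AT3G05270 and AT3G05340 are the 3 named genes in which lcbk1-2 had the higher response and the genotype difference was larger in the cold than at 0 h. AT5G55660, with a DEK chromatin-associated domain, read 70.3, 330 and 335 in lcbk1-2, against 106, 153 and 195 in Columbia-0. Both genotypes were higher in the cold, and the increase was the larger in lcbk1-2 at both times; the difference of response was 1.70 at 3 h and 1.37 at 24 h, and with the floor at 158 it was 1.06 and 0.78. AT3G05270, a filament-like plant protein gene, read 69.7, 281 and 201 in lcbk1-2, against 85.8, 169 and 116 in Columbia-0, and gave 1.04 and 1.09. AT3G05340, of the pentatricopeptide repeat proteins, which bind organelle RNA, read 96.6, 293 and 245 in lcbk1-2, against 101, 151 and 108 in Columbia-0. Its genotypes were nearly equal at 0 h, and its difference of response was 1.02 and 1.24. At 3 h both missed 2-fold after median scaling, AT3G05270 with 0.96 and AT3G05340 with 0.95, and after quantile normalization with 0.96 each.

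In 4 more nuclear genes lcbk1-2 was the lower at 0 h and the higher in the cold. For AT4G33380 the signal in lcbk1-2 was 614, 1688 and 1575, against 1230, 1186 and 1073 in Columbia-0. The 3 Columbia-0 arrays lay between 1073 and 1230, and in lcbk1-2 the 0 h array was the low one. The difference of response was 1.51 at 3 h and 1.56 at 24 h. The dimmer gene AT5G49220 read 97.0, 258 and 218 in lcbk1-2, against 281, 195 and 198 in Columbia-0, giving 1.94 and 1.67; here again the 0 h arrays were the far apart ones, with a genotype difference of -1.54. AT1G76270, of the O-fucosyltransferase family, read 69.5, 81.9 and 466 in lcbk1-2, against 138, 59.8 and 323 in Columbia-0, and gave at least 1.30 at 3 h and 1.52 at 24 h. In the Columbia-0 array at 3 h it was below the floor, so the 3 h value is a bound. AT2G26810 read 93.1, 146 and 287 in lcbk1-2, against 171, 115 and 173 in Columbia-0, and gave 1.22 and 1.61.

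The remaining named genes had a lower response in lcbk1-2. AT4G34660, an SH3-domain gene, read 328, 176 and 270 in lcbk1-2, against 142, 307 and 296 in Columbia-0. Its cold arrays were below the 0 h array in lcbk1-2 and above it in Columbia-0, and the difference of response was -2.01 and -1.34. AT2G28605, of the PsbP-domain proteins of the chloroplast, read 412, 276 and 228 in lcbk1-2, against 273, 500 and 340 in Columbia-0, and gave -1.45 and -1.17. AT3G17250, of the protein phosphatase 2C family, read 271, 140 and 150 in lcbk1-2, against 139, 208 and 163 in Columbia-0, and gave -1.53 and -1.08. In both genes the cold arrays lay below the 0 h array in lcbk1-2 and above it in Columbia-0. AT4G12490, related to lipid-transfer proteins, read 692, 334 and 1074 in lcbk1-2, against 497, 486 and 1750 in Columbia-0. At 24 h both genotypes were above their 0 h values, Columbia-0 by 1.82 and lcbk1-2 by 0.63, and the difference of response was -1.02 at 3 h and -1.18 at 24 h. AT2G41170, an F-box gene, read 278, 144 and 126 in lcbk1-2, against 187, 196 and 204 in Columbia-0, and gave -1.02 and -1.27; the Columbia-0 arrays were nearly level.

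The threshold separates close values. AT5G08240, just inside, gave -1.002 at 3 h and -1.12 at 24 h, with signals of 757, 430 and 142 in lcbk1-2 against 504, 574 and 206 in Columbia-0. Just outside lay AT2G30780, with at least 0.998 at 3 h and at least 1.11 at 24 h, and AT1G61640, with 1.14 and 0.999. For AT2G30780 the Columbia-0 signals in the cold, 37.0 and 59.7, lay below the floor, so its place outside depends on the floor.

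In how the response itself differed, the 77 features were varied. Asking for a 2-fold gap between the 2 changes favours opposite directions, so the counts in this paragraph in part restate the rule. They were not set beside the same counts over all compared features. At 3 h the 2 genotypes changed in opposite directions in 57 features and at 24 h in 40, and in 33 at both times. At 3 h the change was at least 2-fold in lcbk1-2 alone in 21, in Columbia-0 alone in 14, in both in 2 and in neither in 40. At 24 h the counts were 21, 29, 4 and 23. In 12 of the 77 the Columbia-0 signal stayed within 0.5 log2 of its 0 h value at both times.

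The change between 3 h and 24 h does not use the 0 h arrays. By that measure 146 features (0.933%) had a higher change in lcbk1-2 and 262 (1.67%) a lower one, a higher share of 35.8% that became 51.6% after median scaling and 49.5% after quantile normalization. For the 21 named genes it stayed between -0.69 (AT1G48100) and 0.67 (AT4G34660), so none was 2-fold apart in this step. They were chosen for a difference of the same sign at 3 h and 24 h, so the step is no separate check on them. The largest values among brighter annotated genes belonged to genes outside the 77. AT3G49960, of the class III peroxidases, read 295, 250 and 203 in lcbk1-2 against 402, 306 and 61.6 in Columbia-0, the last below the floor, and gave at least 1.91 for the step between 3 h and 24 h, with at least 2.07 at 24 h and 0.16 at 3 h. Its 2 genotypes were thus apart at 24 h, where the Columbia-0 array was the low one. AT2G36360 gave -1.57 for that step, with 0.13 at 3 h and -1.44 at 24 h. At 3 h alone, the reticulon gene AT2G15280 gave -2.21 (-0.80 at 24 h) and AT1G52000, of the jacalin lectin family, 1.48 (0.16 at 24 h, with both 24 h arrays at the floor).

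The genes of sphingolipid metabolism around LCBK1 were measured in part. Of 32 loci of the sphingolipid list, 10 had a compared feature annotated to them, and none of the 10 was 2-fold altered or among the 77. The difference of response was below 0 in 8 of the 10 at 3 h (median -0.34, range -0.52 to 0.03) and in 9 at 24 h (median -0.35), where 47.7% and 50.5% of all features were below 0. DPL1, the lyase that splits phosphorylated long-chain bases, read 596, 485 and 363 in lcbk1-2, against 560, 628 and 500 in Columbia-0, and gave -0.46 at 3 h and -0.55 at 24 h. LCB2, a subunit of the serine palmitoyltransferase that makes long-chain bases, read 836, 479 and 200 in lcbk1-2, against 715, 560 and 237 in Columbia-0, and gave -0.45 and -0.47. The list's 10 genes kept a median below 0 at both times in every setting tried.

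The COR list was measured for 7 of 18 loci, with none 2-fold altered at either time and medians of -0.29 at both. The count of 2-fold altered genes and the 3 h median depend on the floor. At 0 h COR27 in lcbk1-2 read 28.9, and AT4G33980 read 1.46 in lcbk1-2 and 10.2 in Columbia-0, all below the floor. At 3 h COR27 gave -0.29, the median itself, and AT4G33980 -0.95, neither with a fixed direction. At 24 h they gave at least 0.45 and an uncertain 0.54, so a 2-fold alteration of either gene could not be judged. COR15A, a chloroplast protein that protects membranes in freezing, read 891, 2537 and 33884 in lcbk1-2, against 494, 1267 and 37229 in Columbia-0, and gave 0.15 at 3 h and -0.99 at 24 h. Both genotypes had a large increase at 24 h, and the -0.99 came with a genotype difference of 0.85 at 0 h and -0.14 at 24 h. LTI30, a dehydrin gene, gave -0.84 at 3 h and -0.83 at 24 h. Of the 16 early cold regulators, the transcription factor gene STZ alone had a compared feature annotated to it. It read 339, 5741 and 1795 in lcbk1-2, against 317, 5030 and 1366 in Columbia-0, and gave 0.09 and 0.30.

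**Figure D4:**
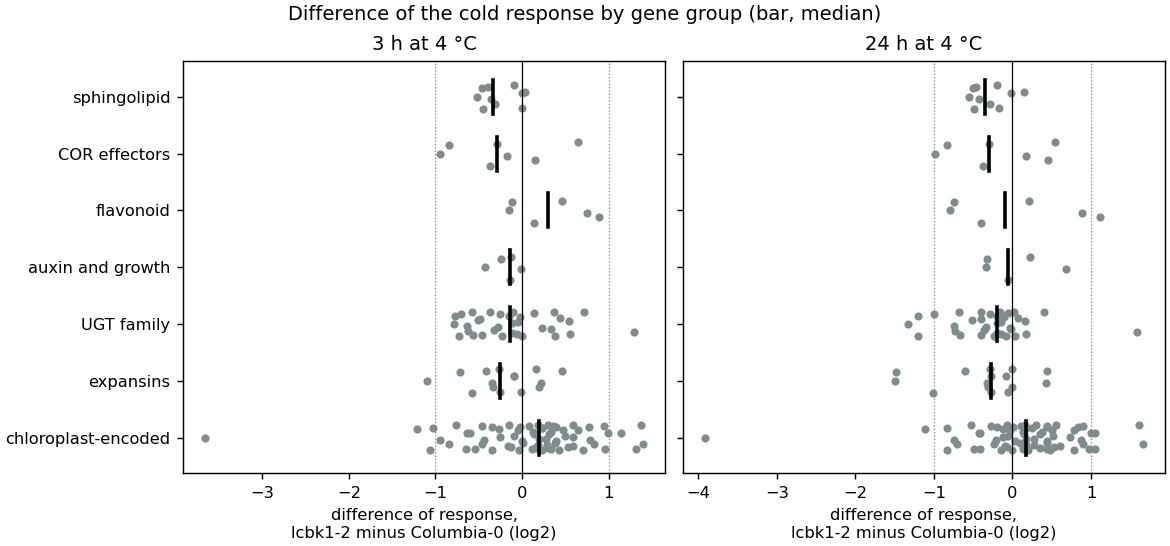
Difference of response, lcbk1-2 minus Columbia-0 in log2 units (x axis), at 3 h (left) and 24 h (right) for the compared genes of 7 groups; each dot is 1 gene, the bar is the median and the dotted lines mark 2-fold. The sphingolipid genes lie between -0.52 and 0.03 at 3 h, and petL is the far left dot of the chloroplast-encoded genes at -3.66 and -3.92.

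Over the 17 gene lists, 47 of 200 loci had a compared feature annotated to them. Of these, 0 were among the 77, as were 0.492% of all features. No gene was annotated to 28 of the 77 and to 6866 of all compared features, so list genes could be among them unnamed. Outside the sphingolipid and COR lists, 2 list genes were 2-fold altered, both at 24 h: the flavonoid gene AT4G14090, with 1.12, and CML37, a calmodulin-like calcium sensor, with 1.08, both with 0 h arrays at the floor in both genotypes. Of the organ markers, the root genes EXPA7, EXPA18 and PYK10 gave -0.42, 0.20 and 0.34 at 3 h and -0.60, -0.27 and 0.20 at 24 h. The green-tissue genes LHCB4.2 and PORB gave 0.28 and -0.43 at 3 h, and -0.02 and -0.14 at 24 h. These markers thus moved by less than 2-fold between genotypes, and their part in the values above was not tested.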

How the data were processed

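The values the authors deposited are intensities, 1 for each probe set on each array. The submitters' processing notes name MAS5; neither its version nor its settings stand in the sources used here. The values are linear, and each array's 2% trimmed mean is close to 500, so the arrays had been scaled to a common mean. Per the labels' protocols, each ATH1 chip received target prepared from 6 µg of RNA.

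Of 22810 features, 64 control probe sets were left out. Probe sets were named through the platform annotation and the RefSeq gene table of TAIR10.1, 1 probe set per gene was kept (the one with the highest mean), and features above a signal of 66 on fewer than 2 arrays were left out (6935), which left 15653: 8471 had 1 annotated gene, 316 several and 6866 none. Values under 66 were set to 66 and log2 taken. Changes against an array at the floor are bounds, given as "at least" where the direction is fixed. Where it is not fixed, the difference of response is uncertain and can be smaller than given. The difference of differences, its change between 3 h and 24 h, and counts past 2-fold were computed in Python 3.11.15 (numpy 2.4.6, pandas 2.3.3, matplotlib 3.10.9). The calculation was tested on simulated data with known differences put into features well above the floor. That test checks the arithmetic and not the precision of these arrays. With 1 array per condition no test was made, and precision is limited by this number of arrays.

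Named genes were those altered at both times on annotated probe sets whose brightest array reached 264, 20 of them in full, plus the 10 highest and 10 lowest at each cold time, the sphingolipid, COR and early regulator lists and the genes at the threshold; of these groups the text gives examples. Genes named from outside it, chosen after their values were seen, are AT1G30700, UGT71C3, UGT71B1, UGT73C1, EXPA7, EXPA18, PYK10, LHCB4.2, PORB, CML37, AT4G14090, atpF, rpl20, ndhE and rps14. The members and lists were chosen with earlier results of these data known. The UGT, expansin, xyloglucan endotransglucosylase, trichome birefringence-like and chloroplast groups were formed from gene symbols after values were seen. Alternatives were other floors, other scalings, other fold thresholds, a brightness minimum and other treatments of several probe sets.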

Additional observations from a re-analysis of the deposited data

Results flagged for a closer look

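In 8 of the 21 named genes the 2 genotypes changed in opposite directions at both cold times. The difference was not tested, since each condition had 1 array, and the rule that chose these genes favours opposite changes. Higher in the cold in lcbk1-2 and lower in Columbia-0 were AT5G49220 (1.41 in lcbk1-2 and -0.53 in Columbia-0 at 3 h, a difference of 1.94), AT4G33380 (1.46 and -0.05, a difference of 1.51) and rps2 (0.67 and -0.64, a difference of 1.32). Lower in the cold in lcbk1-2 and higher in Columbia-0 were AT4G34660 (-0.90 in lcbk1-2 and 1.11 in Columbia-0 at 3 h, a difference of -2.01), AT2G28605 (-0.58 and 0.87, a difference of -1.45) and AT3G17250 (-0.95 and 0.58, a difference of -1.53). The same held for TBL38 (-0.44 and 0.58, a difference of -1.02) and AT2G41170 (-0.95 and 0.07, a difference of -1.02). For AT4G33380 and AT2G41170 the Columbia-0 change was small at both times, at most 0.20 in size.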

How the results depend on the processing

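The number of altered features depended on the floor, the fold threshold and the brightness minimum. In place of 77 at both times, 326 at 3 h, 429 at 24 h and 408 between 3 h and 24 h, a floor at the 20th percentile gave 523, 1399, 1866 and 1721, a floor at the 50th percentile 17, 90, 109 and 83, and no floor 2781, 5079, 5655 and 5452. A 1.5-fold threshold gave 708, 1932, 2379 and 2196, a 3-fold threshold 2, 25, 28 and 24, and a brightest array of at least 264 gave 31, 132, 184 and 164. The counts between 3 h and 24 h under these settings were chosen after seeing the data. Median scaling, quantile normalization and the treatments of several probe sets kept every count within 1.5 times; of the 77 features, 64 were shared after median scaling, 63 after quantile normalization, 14 with the floor at the 50th percentile and 73 with that at the 20th. Of the 21 named genes, 8 met the rule in all 6 settings that change the values, 11 in 5, missing it with the floor at the 50th percentile (AT5G49220, AT5G55660, AT1G48100, AT4G15260, AT1G76270, XTH33, AT2G26810, EXPA16, AT3G17250, AT2G41170 and AT5G08240), and AT3G05270 and AT3G05340 in 3. Of 778 single values recomputed, 49 moved and 0 reversed. No paired analysis was possible because each condition had 1 array. With no replicates, dim features near the floor limit what can be read.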
